A study of Mus musculus with 18 samples.

Results

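The collagen chains were examined in mouse epidermis as the 43 genes, of 20655 in the coding-sequence count table, whose symbol has the form of a collagen alpha chain and that had a count in any library. Col17a1, a transmembrane collagen of the hemidesmosome, was left out by this rule. The chains were taken by symbol and not by a measured difference, though the group was chosen with earlier results of these data known. They were grouped into 11 fibrillar chains, 8 basement membrane chains (the type IV, VII and XVIII collagens) and 24 other chains.

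Basal cells of embryonic mouse epidermis, taken at E18.5, gave 18 sequenced libraries, 3 of ribosome footprints and 3 of RNA in each of 3 conditions. WT shScram embryos (genotype WT, of a strain that carries a tdTomato and EGFP reporter at the Rosa26 locus) were injected in utero at E9.5 with a scrambled hairpin RNA. HrasG12V shScram embryos (strain FR-HrasG12V, genotype HrasG12V, an activated form of the Ras GTPase) received the same hairpin. HrasG12V shEif2b5 embryos of that strain received a hairpin against Eif2b5, which encodes a subunit of the translation initiation factor eIF2B. Both kinds of library came from cells treated with cycloheximide, which stalls ribosomes on mRNA, then with dispase to part epidermis from dermis, and with trypsin. The genotype label of WT shScram footprint library 1 reads Rosa26, and that library was kept with its group. No WT shEif2b5 group was analysed here, and the effect of strain cannot be told apart from that of genotype.

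A collagen chain is built mainly of repeats of glycine followed by 2 other residues, often proline and hydroxyproline, and chains wind in threes into a triple helix inside the endoplasmic reticulum before secretion. Fibrillar collagens form the fibres of the dermis and are made chiefly by fibroblasts. Type IV collagen is the network of the basement membrane under the epidermis, to which keratinocytes contribute, and type VII collagen, made by keratinocytes, forms the anchoring fibrils that fasten it to the dermis.

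Stretches of coding sequence from 6 chains on which the results below turn show the repeat and its base composition. Capitals mark the glycine codon that opens each triplet, and each stretch is the first 81 bases of the longest uninterrupted run of triplets in the GENCODE M21 transcript (mm10). Glycine codons open with 2 G bases.
Col1a1 (exons 6 to 8, chr11:94939451-94939930, plus strand): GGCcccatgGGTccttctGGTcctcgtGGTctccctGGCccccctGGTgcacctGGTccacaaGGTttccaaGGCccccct
Col4a1 (exons 2 to 3, chr8:11247033-11267614, minus strand): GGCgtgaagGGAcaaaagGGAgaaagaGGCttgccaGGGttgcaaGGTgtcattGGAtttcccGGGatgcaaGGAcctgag
Col7a1 (exons 102 to 103, chr9:108978632-108978865, plus strand): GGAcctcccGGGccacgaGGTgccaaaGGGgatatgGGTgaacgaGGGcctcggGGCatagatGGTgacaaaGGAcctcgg
Col16a1 (exons 47 to 48, chr4:130079646-130080584, plus strand): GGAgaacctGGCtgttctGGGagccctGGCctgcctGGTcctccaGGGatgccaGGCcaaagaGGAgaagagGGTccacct
Col27a1 (exons 6 to 8, chr4:63244040-63253661, plus strand): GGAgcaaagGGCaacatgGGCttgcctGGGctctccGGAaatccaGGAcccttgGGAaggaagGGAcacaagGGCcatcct
Col12a1 (exons 56 to 58, chr9:79612432-79613769, minus strand): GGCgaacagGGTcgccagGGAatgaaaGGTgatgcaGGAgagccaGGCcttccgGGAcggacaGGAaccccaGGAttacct
The longest run held 338 triplets in Col1a1, 217 in Col27a1, 75 in Col7a1, 52 in Col16a1, 40 in Col4a1 and 32 in Col12a1. Coding GC content was 62.9% in Col1a1, 62.4% in Col27a1, 62% in Col16a1, 61.7% in Col7a1 and 60.4% in Col4a1, against 48.9% in Col12a1. Col12a1 and Col14a1, which carry short collagen domains and long stretches of other domains, had glycine at 9.17% and 10.8% of codons, and Col4a1 had it at 28.6%.

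Coding-sequence counts ran from 1771365 to 5505386 per RNA library and from 3319175 to 4933298 per footprint library. Values are given in CPM (counts per 1000000 after TMM scaling of library sizes). The targeted gene, Eif2b5, had RNA levels of 158, 178 and 158 CPM in WT shScram, 126, 387 and 144 CPM in HrasG12V shScram and, in HrasG12V shEif2b5, 134, 128 and 143 CPM, with 78.4 to 105 CPM in the footprint libraries. It differed between the HrasG12V conditions with a log2 fold change in RNA of −0.68 ± 0.37 (SE, edgeR adjusted p 0.257) and in footprints of −0.16 ± 0.12 (adjusted p 0.994), so a knockdown was not detected by this test, and HrasG12V shScram RNA library 2 was the highest. All 10 basal keratinocyte markers were detected, with summed levels of 9886 to 19155 CPM in RNA and 10274 to 17478 CPM in footprints, and suprabasal markers summed to 33928 to 101664 CPM in RNA and 21710 to 69069 CPM in footprints. HrasG12V shScram RNA libraries 1 and 3 stood apart from the other 7 RNA libraries in base composition. Over 9142 genes, the departure of a library from the mean of the 9 followed coding GC content with a Spearman rho of −0.48 and −0.61 in these libraries and of −0.07 to 0.52 in the others. The RNA results below are therefore also given without both libraries. That leaves library 2 alone in the HrasG12V shScram RNA group, at 1771365 counts. A call against this group that is lost in that fit does not show that the difference is gone.

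Of the 43 chains, 20 reached a mean of 10 CPM in at least 1 group: 6 fibrillar, 6 basement membrane and 8 other chains. In RNA 25 chains had enough counts to be tested, in footprints 25, and in both kinds 24. Col11a2 was tested in RNA only, and Col25a1 in footprints only. The 17 chains tested in neither kind were Col2a1, Col5a3 and Col24a1 (fibrillar), Col4a3 and Col4a4 (basement membrane), and Col6a4, Col6a5, Col8a2, Col9a1, Col9a2, Col10a1, Col13a1, Col19a1, Col20a1, Col22a1, Col23a1 and Col28a1. Col2a1, the main chain of cartilage fibrils, reached 6.28 CPM in 1 RNA library and stayed at or under 4.23 CPM in footprints. Col11a2, Col22a1, Col28a1 and Col6a4 had no footprint in any of the 9 libraries, which allows a level of up to 0.0774 CPM (3 counts of 38752201). Col11a2, a minor chain of cartilage fibrils, had 117 RNA counts over the 9 RNA libraries, at 1.98 to 8.3 CPM. Such a limit covers counting error only.

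Basement membrane chains held the largest class sum of reads in 8 of 9 libraries of each kind, all but WT shScram library 1, where fibrillar chains did. Per kilobase of coding sequence they held it in 7 of 9 RNA libraries and 6 of 9 footprint libraries, since fibrillar chains then also led in HrasG12V shScram RNA library 3 (250 against 248 CPM per kb) and footprint libraries 1 (155 against 149) and 3 (232 against 183). Their levels summed to 1174 to 2837 CPM in RNA and 848 to 1372 CPM in footprints. Fibrillar chains summed to 623 to 2574 CPM in RNA and 413 to 1261 CPM in footprints, and other chains to 468 to 867 CPM in RNA and 528 to 990 CPM in footprints. The fibrillar sum was the most uneven, with a highest library 4.13 times the lowest in RNA and 3.05 times in footprints. For basement membrane chains these ratios were 2.42 and 1.62.

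**Figure D1:**
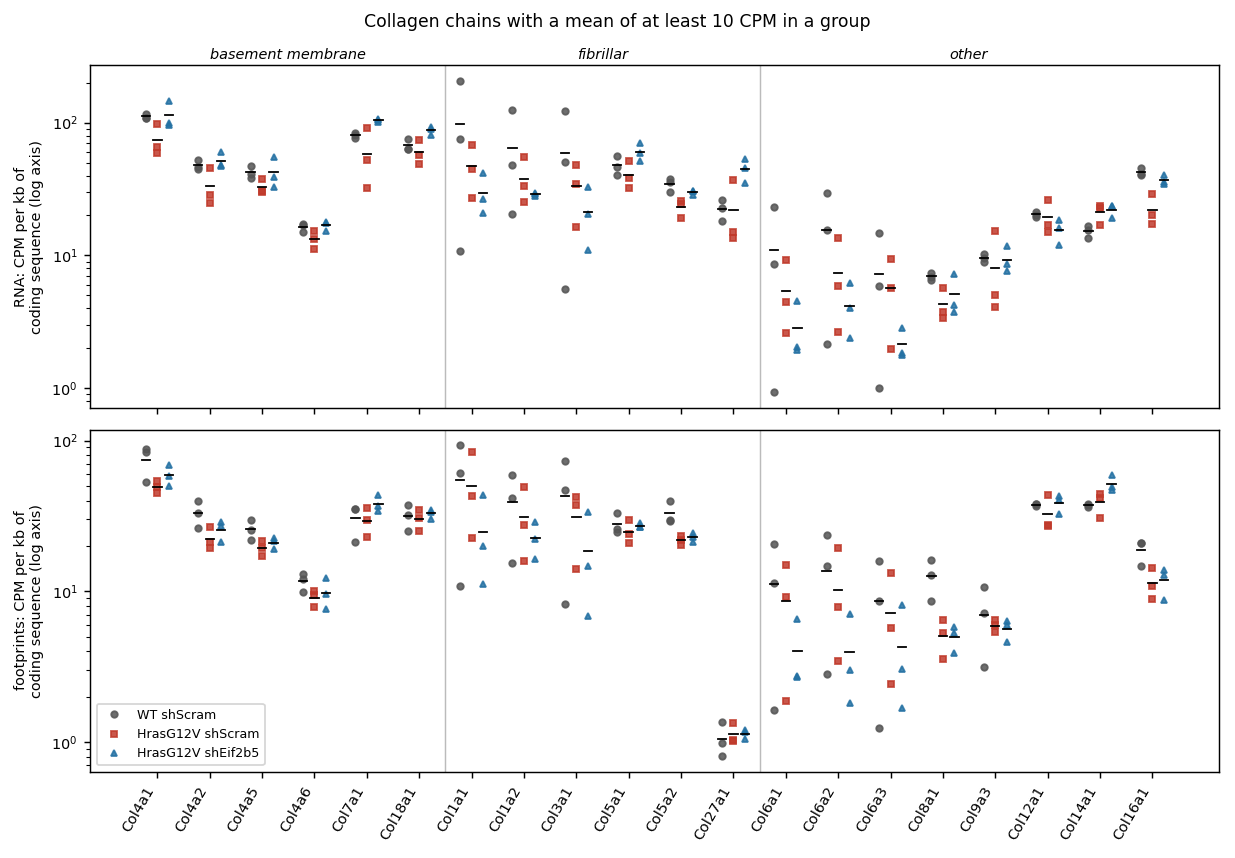
Level of each collagen chain with a mean of at least 10 CPM in a group, per kilobase of coding sequence (log axis), in RNA (top) and footprints (bottom). Points are single libraries (3 per condition) and bars their means. Col1a1, Col3a1 and Col6a1 to Col6a3 spread widely within each condition, and Col27a1 is low in footprints alone.

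Per kilobase of coding sequence, Col4a1 stood at 111 ± 3.83 CPM per kb of RNA in WT shScram (SD, n = 3), Col7a1 at 80.5 ± 3.9 and Col18a1 at 67.5 ± 7.21. These chains make the type IV network, the anchoring fibrils and a basement membrane proteoglycan. In WT shScram footprints Col4a1 stood at 74.6 ± 19, Col18a1 at 31.6 ± 6.21 and Col7a1 at 30.5 ± 8.15 CPM per kb. Col18a1 and Col7a1 did not differ beyond their spread there.

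The chains that assemble with one another kept to ratios of differing steadiness. Col4a1 and Col4a2, which join in the most common type IV collagen, had 2.26 ± 0.149 reads of Col4a1 per read of Col4a2 in RNA and 2.26 ± 0.204 in footprints, both per length (SD over 9 libraries). Over all 18 libraries the ratio ran from 1.99 to 2.55. Col4a5 and Col4a6, on the X chromosome, stood at 2.51 ± 0.331 in RNA and 2.18 ± 0.174 in footprints. The ratio of Col1a1 to Col1a2, the chains of type I collagen, ran from 0.533 to 1.66 in RNA and from 0.68 to 1.71 in footprints. It was lowest in WT shScram library 3 in RNA (0.533) and in HrasG12V shEif2b5 library 1 in footprints (0.68), where Col1a1 itself was low.

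The ratio of Col5a1 to Col5a2, the chains of the type V collagen that nucleates dermal fibrils, was singled out after its values were seen. Per length in RNA it was 1.51, 1.3 and 1.33 in WT shScram, 1.68, 1.99 and 1.57 in HrasG12V shScram, and 2.29, 1.8 and 1.92 in HrasG12V shEif2b5. In footprints it was 0.873, 0.827 and 0.852 in WT shScram, 1.19, 0.959 and 1.28 in HrasG12V shScram, and 1.11, 1.16 and 1.34 in HrasG12V shEif2b5. The WT shScram libraries lay below all HrasG12V libraries in both kinds. The difference in this ratio was not tested.

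**Figure D2:**
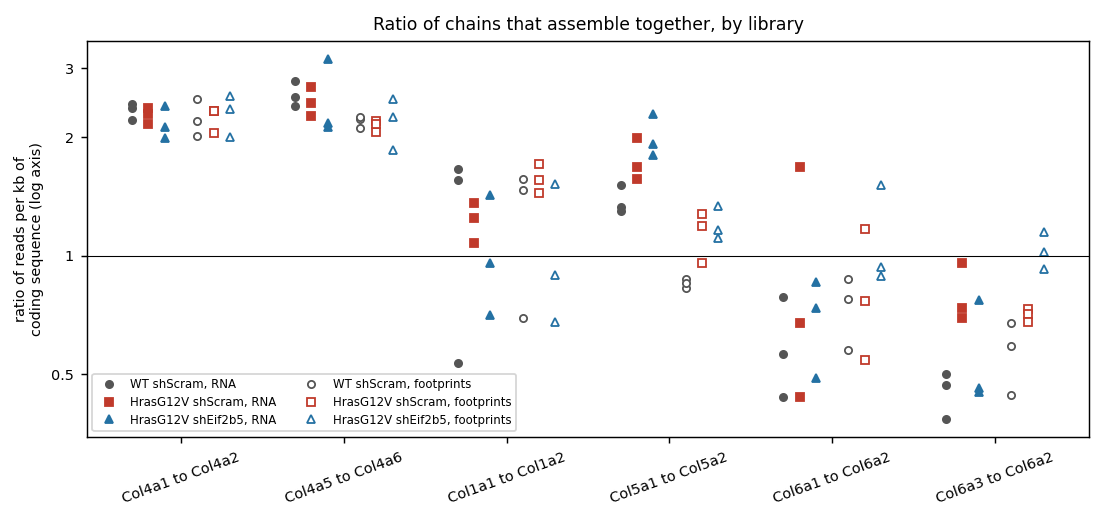
Ratio of reads per kilobase of coding sequence between chains that assemble together (log axis), in each RNA library (filled) and footprint library (open). Col4a1 to Col4a2 stays between 1.99 and 2.55 in all 18 libraries, whereas Col1a1 to Col1a2 runs from 0.533 to 1.71.

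The fibrillar chains of types I and III and the type VI chains differed widely between libraries of one condition. Col1a1 RNA was 900, 330 and 47.6 CPM in WT shScram, 197, 119 and 298 CPM in HrasG12V shScram and, in HrasG12V shEif2b5, 91.2, 117 and 182 CPM. Its footprints were 407, 267 and 47 CPM, 188, 98.7 and 366 CPM, and 48.6, 86.8 and 191 CPM in the same order. In each condition the same library number was highest in both kinds, library 1 in WT shScram and library 3 in both HrasG12V conditions, and the conditions overlapped.

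Col3a1, the second chain of dermal fibrils, followed Col1a1 with RNA of 536, 222 and 24.5 CPM in WT shScram, 152, 71.9 and 211 CPM in HrasG12V shScram and, in HrasG12V shEif2b5, 48.4, 89.8 and 144 CPM. Col6a3, a chain of the beaded filaments around fibroblasts, had footprints of 157, 85.5 and 12.2 CPM, 56.3, 24 and 130 CPM, and 16.5, 30.3 and 79.7 CPM. Col1a2, the partner of Col1a1, had RNA of 513, 200 and 84.4 CPM in WT shScram, 137, 104 and 226 CPM in HrasG12V shScram and, in HrasG12V shEif2b5, 122, 115 and 120 CPM, nearly level where Col1a1 was not. Col6a1 RNA was 71, 26.7 and 2.88 CPM, 7.99, 13.8 and 28.4 CPM, and 6.27, 6.01 and 14 CPM in that order, and Col6a2 footprints were 73.2, 45.7 and 8.75 CPM, 24.3, 10.6 and 60.4 CPM, and 5.62, 9.35 and 21.8 CPM. None of these 6 chains passed a test in any comparison of conditions, and the errors of their log2 differences ran wide, with −1.04 ± 0.95 in RNA for Col1a1 in HrasG12V shScram against WT shScram.

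The highest of 9 RNA libraries was 18.9 times the lowest for Col1a1, 21.9 times for Col3a1, 24.6 times for Col6a1, 13.7 times for Col6a2, 14.6 times for Col6a3 and 6.07 times for Col1a2. In footprints these ratios were 8.66, 10.6, 12.7, 13, 12.8 and 3.82. Over 9184 genes in RNA the median of that ratio was 1.81 and its 99th percentile 4.66, and over 8798 genes in footprints they were 1.54 and 3.84. All these chains lay above that percentile in RNA and all but Col1a2 did in footprints. Col3a1, Col6a1, Col6a2 and Col6a3, and the lowly expressed Col6a6, Col11a1 and Col15a1, were highest in the same library as Col1a1 in 6 of 6 groups. Col1a2 and the lowly expressed Col26a1 were so in 5 of 6, Col5a1 in 3, Col7a1 and Col18a1 in 2, and Col4a1, Col4a2, Col4a5 and Col4a6 in 1 of 6. The groups are 3 conditions seen in both kinds of library, and the same count was not made over all genes.

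**Figure D3:**
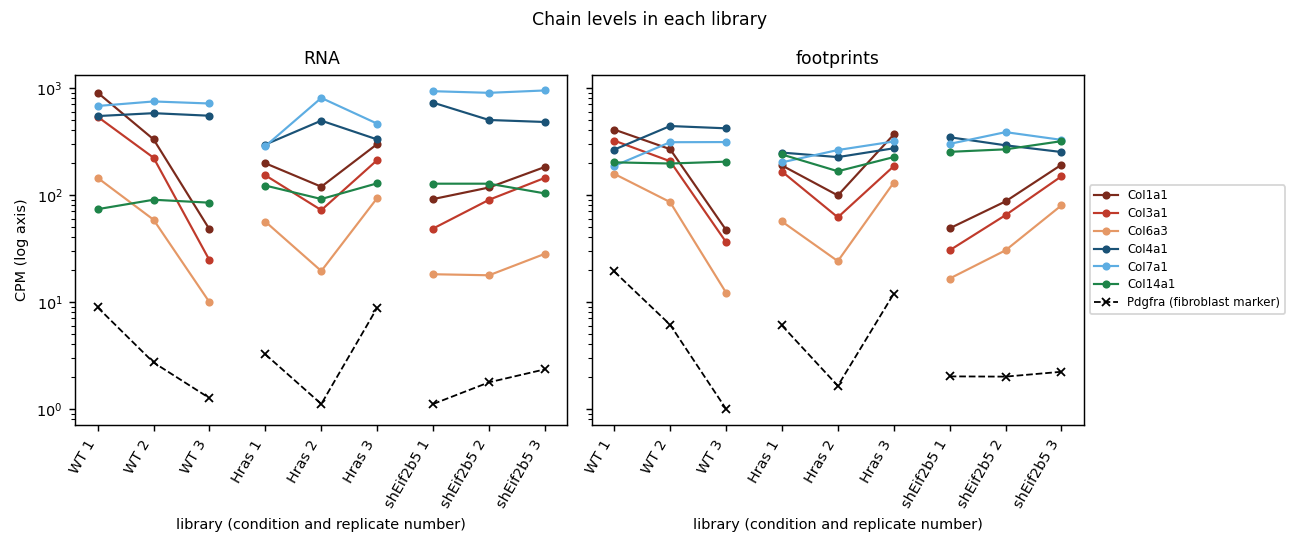
Levels of 6 collagen chains and of the fibroblast marker Pdgfra in each library (CPM, log axis), in RNA (left) and footprints (right). WT is WT shScram, Hras is HrasG12V shScram and shEif2b5 is HrasG12V shEif2b5; lines join the values of one gene within a condition and imply no order. Col1a1, Col3a1, Col6a3 and Pdgfra share their highest library in each condition, and Col4a1 and Col7a1 do not follow them. Pdgfra was picked after its values were seen, and 2 of the 15 listed fibroblast markers did so in 6 of 6 groups. Its values in HrasG12V shEif2b5 rest on few counts.

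Beside these chains stood some markers of dermal fibroblasts, named after their values were seen. Pdgfra, a growth factor receptor of fibroblasts, had footprints of 19.2, 6.11 and 1 CPM in WT shScram, 6.01, 1.64 and 11.9 CPM in HrasG12V shScram and, in HrasG12V shEif2b5, 2.01, 2 and 2.22 CPM. Lum, which encodes a proteoglycan of collagen fibrils, had 47.9, 14 and 3.25 CPM, 11.6, 6.27 and 18.8 CPM, and 4.02, 8.24 and 11.3 CPM. In footprints both were highest in the library in which Col1a1 was highest in each condition. In RNA Pdgfra was too (8.87, 2.71 and 1.26 CPM, 3.23, 1.11 and 8.81 CPM, and 1.11, 1.77 and 2.34 CPM), but Lum was so in 1 of 3 conditions. Of the 15 markers on the list, 2 (Pdgfra and Dpt) shared the highest library of Col1a1 in 6 of 6 groups, 3 in 5, 4 in 4, 3 (Dcn, Postn and Vim) in 3, 2 (Fbln1 and Fbln2) in 2, and Sparc in 1. Mfap5 is among those with 4 only through a tie, with 0 RNA counts in every WT shScram library. In HrasG12V shEif2b5 Pdgfra had 10, 9 and 10 footprint counts and 3, 5 and 5 RNA counts. Dpt had 3, 4 and 6 and 1, 2 and 2 there. These counts are too few to rank the libraries of that condition. The whole list of 15 fibroblast markers summed to 1286 to 1525 CPM in WT shScram RNA, 1300 to 1631 CPM in HrasG12V shScram and 1203 to 1593 CPM in HrasG12V shEif2b5. Each marker had a count in some library of each kind, but Mfap5 had none in RNA of WT shScram or HrasG12V shScram. In footprints the sums were 3442 to 3862, 3291 to 4070 and 3293 to 4087 CPM. Dcn and Postn, which carried much of the sum, were present at 868 CPM or more and 961 CPM or more in every footprint library. Pdgfrb was at 0 in HrasG12V shScram library 2 in both kinds. In such bulk libraries fewer cells of a type and less RNA per cell cannot be told apart, and the part of fibroblast RNA in the levels of these chains was not tested. Endothelial markers summed to 5.05 to 23 CPM in RNA and 11 to 23.6 CPM in footprints.

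The first comparison asked which chains differ between HrasG12V shScram and WT shScram epidermis. In RNA, 2 of 25 tested chains passed the test, both lower: Col16a1 and Col5a2. Of all 11096 genes, 7.7% were called in either direction and 3.05% were called lower. All 8 fibrillar and all 6 basement membrane chains tested had fitted values under 0 (5 of 8 and 5 of 6 with offsets for coding GC content and length), and the median of the 25 was −0.42 against 0.01 for all genes, with 24 of 25 under 0 against 49.2% of all genes.

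Col16a1 (chr4:130047840-130099283, plus strand), a fibril-associated chain found near the dermal junction, had RNA of 216, 194 and 191 CPM in WT shScram and 81.6, 137 and 96.3 CPM in HrasG12V shScram. The groups did not overlap, and the log2 fold change was −0.95 ± 0.17 (SE, adjusted p 0.00424). Its footprints, 69.6, 99.8 and 99.7 CPM against 51.4, 42 and 68 CPM, also did not overlap, but missed the threshold (−0.74 ± 0.2, adjusted p 0.107). Col5a2 (chr1:45374321-45503282, minus strand), the second chain of type V collagen, had RNA of 168, 160 and 136 CPM in WT shScram and 85.6, 116 and 110 CPM in HrasG12V shScram (−0.58 ± 0.15, adjusted p 0.0275). Its partner Col5a1 had 311, 256 and 223 CPM against 177, 284 and 211 CPM, with overlapping groups (−0.24 ± 0.18, adjusted p 0.427, and 0.17 with those offsets).

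Without HrasG12V shScram RNA libraries 1 and 3, Col16a1 stood at −0.55 and Col5a2 at −0.41. Both calls were lost there, with 1 library left in HrasG12V shScram. The median of the 6 basement membrane chains was then −0.08 in place of −0.42, and −0.1 in the fit of all libraries with the offsets. Base composition of these libraries moved with the RNA differences, and its part in them was not tested further. With the offsets Col16a1 kept its call (−0.54, adjusted p 0.0287), Col5a2 lost it (−0.33, 0.178) and Col14a1, a fibril-associated chain, gained one (0.57, adjusted p 0.026). Of the single libraries, leaving out HrasG12V shScram library 1 (adjusted p 0.127) or 3 (0.0563) or WT shScram library 1 (0.12) or 2 (0.101) ended the call of Col5a2. Without HrasG12V shScram library 2 the count of chains was 10, and the share of all genes called in that fit is not given here. Without HrasG12V shScram library 3 Col26a1, a lowly expressed chain, was called (−3.46, adjusted p 0.0182).

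In footprints, 2 of 25 tested chains passed, both lower, against 1.7% of all 11448 genes called and 0.472% called lower. Col8a1 (chr16:57624258-57754737, minus strand), a short network-forming chain, fell from 19.2, 36.2 and 28.7 CPM in WT shScram to 11.8, 7.91 and 14.3 CPM in HrasG12V shScram. The groups did not overlap, with a log2 fold change of −1.30 ± 0.25 (adjusted p 0.0104). In RNA it was 15.3, 14.7 and 16.6 CPM against 7.61, 12.7 and 8.38 CPM (−0.78 ± 0.28, adjusted p 0.0914). Col5a2 fell from 132, 179 and 131 CPM to 90.6, 98.2 and 105 CPM (−0.60 ± 0.13, adjusted p 0.0258). In the main fits Col5a2 was thus called lower in both kinds of library, by nearly the same size. With the offsets it stood at −0.33 in RNA (adjusted p 0.178) and at −0.52 in footprints (adjusted p 0.0189).

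All 6 basement membrane chains had footprint values under 0 (median −0.39, against −0.01 for all genes; 4 of 6 with the offsets) and none passed. Col4a1 had footprints of 264, 439 and 418 CPM in WT shScram and 248, 225 and 272 CPM in HrasG12V shScram (−0.59 ± 0.17, adjusted p 0.111), and Col4a2 134, 204 and 170 CPM against 109, 98.7 and 136 CPM (−0.57 ± 0.16, adjusted p 0.102). WT shScram library 1 was the low one for both. Without it Col4a1 (−0.79, adjusted p 0.00638) and Col4a2 (−0.72, adjusted p 0.0415) passed, which made 4 chains. Col8a1 lost its call without HrasG12V shScram footprint library 1 (adjusted p 0.0637) or 2 (0.0605) or WT shScram library 2 (0.0749), and Col5a2 without HrasG12V shScram library 1 (0.164), 2 (0.108) or 3 (0.0751) or WT shScram library 2 (0.164). The offsets left both called.

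**Figure D4:**
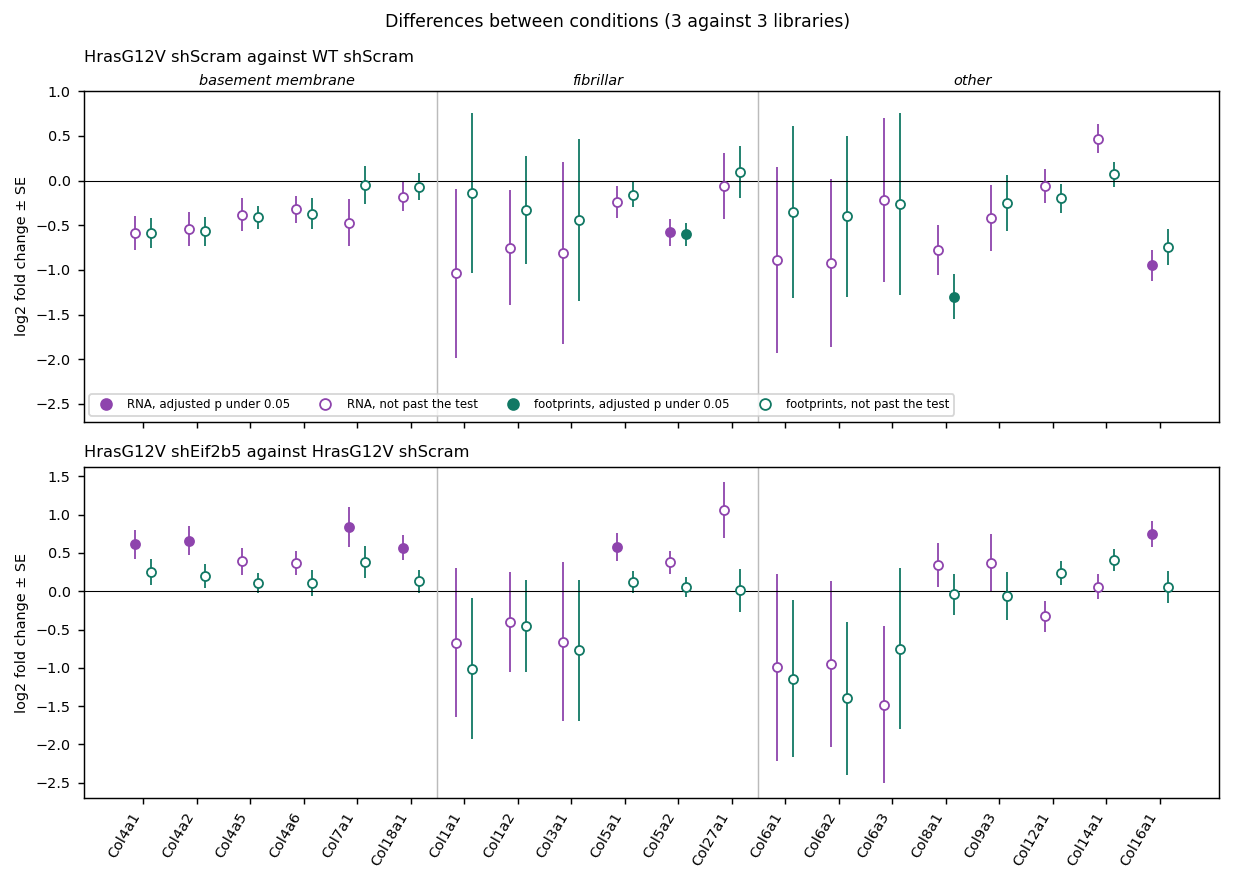
Log2 fold change ± SE of each chain in RNA (purple) and footprints (green) for HrasG12V shScram against WT shScram (top) and HrasG12V shEif2b5 against HrasG12V shScram (bottom), 3 against 3 libraries; filled points passed an edgeR adjusted p of 0.05. Basement membrane chains lie under 0 in the top panel and over 0 in the bottom panel, which share the HrasG12V shScram libraries, though with offsets for GC content and length 5 of 6 in RNA and 4 of 6 in footprints lie under 0 in the top comparison and 6 and 3 of 6 over 0 in the bottom one, and Col1a1, Col3a1 and Col6a1 to Col6a3 have the widest errors.

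The paired X-linked chains Col4a5 and Col4a6, which form the type IV network of the skin together with the ubiquitous chains, passed in no comparison of conditions. Col4a5 footprints were 112, 150 and 130 CPM in WT shScram, 87.2, 98.7 and 110 CPM in HrasG12V shScram and, in HrasG12V shEif2b5, 115, 109 and 96.6 CPM. The HrasG12V shScram libraries all lay below WT shScram (−0.41 ± 0.13, adjusted p 0.16). Col4a6 footprints were 50.1, 66.3 and 61.5 CPM, 39.6, 47.7 and 51 CPM, and 61.8, 48.3 and 38.4 CPM in that order, with overlapping groups (−0.37 ± 0.17, adjusted p 0.335). Col9a3, a chain of cartilage fibrils, had RNA of 21, 18.2 and 19.7 CPM in WT shScram, 8.37, 31 and 10.3 CPM in HrasG12V shScram and, in HrasG12V shEif2b5, 15.5, 17.7 and 23.9 CPM, and passed in none either.

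The second comparison asked what the Eif2b5 hairpin changes in HrasG12V epidermis. In RNA, 6 of 25 chains passed, all higher, against 13% of all genes called and 5.23% called higher. They were 4 of 6 tested basement membrane chains (Col4a1, Col4a2, Col7a1 and Col18a1), 1 of 8 fibrillar chains (Col5a1) and 1 of 11 other chains (Col16a1). The median was 0.59 for the basement membrane chains, 0.07 for the fibrillar and −0.33 for the other chains, against −0.01 for all genes.

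Col7a1 (chr9:108953586-108984875, plus strand), the anchoring fibril chain, had RNA of 285, 804 and 462 CPM in HrasG12V shScram and, in HrasG12V shEif2b5, 929, 897 and 944 CPM (0.84 ± 0.26, adjusted p 0.0499). Col18a1 (chr10:77052178-77166548, minus strand), the source of endostatin, had 259, 392 and 302 CPM against 497, 429 and 481 CPM (0.57 ± 0.16, adjusted p 0.0299). Col4a2 (chr8:11312805-11449287, plus strand) had 127, 234 and 147 CPM against 309, 241 and 246 CPM (0.66 ± 0.19, adjusted p 0.0309). In each of these 3 chains HrasG12V shScram library 2 was the highest of its group and all shEif2b5 libraries lay above it. Col4a1 (chr8:11198423-11312826, minus strand), which shares its promoter region with Col4a2, had 295, 493 and 329 CPM against 726, 500 and 479 CPM, with overlapping groups (0.61 ± 0.19, adjusted p 0.0459). Col5a1 (chr2:27886425-28039514, plus strand) had 177, 284 and 211 CPM against 388, 286 and 325 CPM (0.58 ± 0.18, adjusted p 0.044), and Col16a1 81.6, 137 and 96.3 CPM against 191, 170 and 163 CPM (0.75 ± 0.17, adjusted p 0.0114). Col5a1 is overlapped by short transcripts on the other strand, at 1.79% and 2.05% of its coding bases, and the strand setting of the counts is not given in the sources used here.

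None of these 6 calls held with the offsets for GC content and length, where the 6 basement membrane chains had a median of 0.17. The calls also did not hold without HrasG12V shScram RNA libraries 1 and 3, a fit with 1 library left in that group. The median of the 6 basement membrane chains was then 0.2. Values in that fit were 0.36 for Col16a1, 0.26 for Col18a1, 0.23 for Col5a1, 0.21 for Col4a1, 0.2 for Col7a1 and 0.19 for Col4a2. Without HrasG12V shScram library 1 or HrasG12V shEif2b5 library 1 the count was 0, without HrasG12V shScram library 3 or HrasG12V shEif2b5 library 3 it was 1, and without HrasG12V shScram library 2 it was 11. The shares of all genes called in these fits are not given here.

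In footprints of the same comparison none of the 25 chains passed, and none of all genes did (0% called by edgeR). At an unadjusted p under 0.05 there were 2 chains, Col14a1 (0.41 ± 0.14) and Col26a1 (−2.66 ± 1.19), and 519 of all genes, and the DESeq2 Wald test called 1 gene, which was no chain. Col7a1 footprints were 201, 262 and 315 CPM in HrasG12V shScram and, in HrasG12V shEif2b5, 299, 385 and 326 CPM (0.38 ± 0.21, 95% interval −0.07 to 0.83). For Col4a1 they were 248, 225 and 272 CPM against 345, 290 and 251 CPM (0.25 ± 0.17, interval −0.11 to 0.61). Both sets of groups overlapped. Col14a1 had 238, 166 and 225 CPM against 252, 266 and 317 CPM, which did not overlap, at an adjusted p of 0.994.

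Against WT shScram, HrasG12V shEif2b5 RNA differed in no chain of 25, with 0.324% of all genes called by edgeR. At an unadjusted p under 0.05 there were 3 chains, Col14a1 (0.53), Col27a1 (1.00) and Col18a1 (0.38), and the DESeq2 Wald test called none. The 6 basement membrane chains had a median of 0.08. Col27a1 (chr4:63214004-63334991, plus strand), a fibrillar chain known from cartilage, had RNA of 125, 146 and 100 CPM in WT shScram, 83.7, 206 and 75 CPM in HrasG12V shScram and, in HrasG12V shEif2b5, 250, 194 and 296 CPM. Its shEif2b5 libraries all lay above WT shScram (1.00 ± 0.36, adjusted p 0.557). It passed in a fit of these 2 conditions alone (1.01, adjusted p 0.00233) and in the fit without HrasG12V shScram libraries 1 and 3 (1.01, 0.00243).

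In footprints 1 of 25 chains passed, lower, against 0.97% of all genes called and 0.21% called lower. This was Col8a1, at 12.9, 11.8 and 8.66 CPM in HrasG12V shEif2b5 against 19.2, 36.2 and 28.7 CPM in WT shScram (−1.34 ± 0.25, adjusted p 0.0131). The call was lost without HrasG12V shEif2b5 footprint library 2 (0.0645) or 3 (0.0795) or WT shScram library 2 (0.0681). Without HrasG12V shEif2b5 library 1 the count was 2 and without WT shScram library 3 it was 3. Col5a2 had 109, 103 and 94.8 CPM against 132, 179 and 131 CPM (−0.53 ± 0.13, adjusted p 0.0621), with no overlap. Col8a1 and Col5a2 thus lay below WT shScram in both HrasG12V conditions, which share the WT shScram libraries.

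Translation efficiency, taken here as the footprint difference beyond the RNA difference in 1 model over all 18 libraries, was called for none of 24 chains in any comparison. Over all 10793 genes, 1.17% were called between HrasG12V shScram and WT shScram, 2.11% between the HrasG12V conditions and 0% between HrasG12V shEif2b5 and WT shScram. At an unadjusted p under 0.05 there were 0, 1 and 1 chains in that order, and the DESeq2 Wald test called none. In the second comparison the 6 basement membrane chains all had values under 0 (median −0.41, against 0.03 for all genes), and the median was −0.01 without HrasG12V shScram RNA libraries 1 and 3. The lowest p there belonged to Col16a1 (−0.71 ± 0.28, adjusted p 0.162). Without HrasG12V shScram RNA library 2 alone, 4 chains passed, Col16a1 (−0.93, adjusted p 0.0211), Col27a1 (−1.63, 0.00215), Col4a2 (−0.76, 0.0315) and Col7a1 (−0.94, 0.0337). The share of all genes called in that fit is not given here.

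The footprint level of a chain was also set against its RNA level within each condition. Each kind was scaled to its own library size, so such a ratio is relative to the other genes. In WT shScram 12 of 24 chains passed, 9 lower and 3 higher in footprints, where 69.4% of all genes passed, 34.9% lower and 34.5% higher. In HrasG12V shScram 11 passed, 9 lower and 2 higher, against 65.5%, 33.6% and 31.9% of all genes. In HrasG12V shEif2b5 12 passed, 10 lower and 2 higher, against 70.2%, 35% and 35.2%.

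Lower ratios were not confined to basement membrane chains. The 7 tested fibrillar chains had medians of −0.72 in WT shScram, −0.1 in HrasG12V shScram and −0.37 in HrasG12V shEif2b5. Of them 2, 2 and 3 were called, all lower. The 11 tested other chains had medians of 0.31, 0.38 and −0.05, with 1 called lower in each condition and 3, 2 and 2 higher. All 6 tested basement membrane chains were lower in footprints in each of the 3 conditions, with medians of −0.65, −0.66 and −1.02 in the order WT shScram, HrasG12V shScram and HrasG12V shEif2b5, against −0.01, −0.03 and 0 for all genes. Without HrasG12V shScram RNA libraries 1 and 3 all 6 passed in all 3 conditions. Some of these calls rested on 1 library: in WT shScram Col4a1 (adjusted p 0.0836), Col4a2 (0.0924) and Col4a6 (0.0555) were lost without footprint library 1, and Col4a2 (0.059) without RNA library 2. In HrasG12V shScram Col4a1 (0.137) and Col4a2 (0.197) were lost without RNA library 2, Col4a1 (0.0544) and Col4a2 (0.0738) without footprint library 2, and Col4a2 (0.0542) and Col4a6 (0.0523) without footprint library 1.

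Col27a1 had the lowest ratio of the chains in every condition. Against RNA of 75 to 296 CPM its footprints were 4.45, 5.43 and 7.5 CPM in WT shScram, 7.34, 5.73 and 5.59 CPM in HrasG12V shScram and, in HrasG12V shEif2b5, 6.63, 5.79 and 6.44 CPM. The log2 ratio was −4.40 ± 0.38 in WT shScram (adjusted p 3.06e-08), −4.23 ± 0.38 in HrasG12V shScram (5.67e-08) and −5.29 ± 0.37 in HrasG12V shEif2b5 (2.22e-09). Among 10793 genes these were the 8th, 7th and 2nd lowest ratios. Its RNA in HrasG12V shEif2b5 stood at 2.08 times the HrasG12V shScram level and did not pass the test (adjusted p 0.0868). Its footprints were 6.22 ± 0.975 CPM in HrasG12V shScram and 6.29 ± 0.44 CPM in HrasG12V shEif2b5 (SD, n = 3). No 30-base stretch of its coding sequence is shared with another gene's.

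On the other side stood the fibril-associated chains Col12a1 and Col14a1, which decorate type I fibrils. Col14a1 had 73.4, 89.9 and 84.4 CPM of RNA and 201, 196 and 204 CPM of footprints in WT shScram, a log2 ratio of 1.28 ± 0.15 (adjusted p 4.24e-08). Col12a1 had 186, 180 and 196 CPM of RNA and 347, 350 and 338 CPM of footprints (0.88 ± 0.19, adjusted p 0.000334). In the other conditions the ratio was 0.87 and 1.22 for Col14a1 and 0.74 and 1.31 for Col12a1, all called. Col8a1 was higher in footprints in WT shScram (0.85 ± 0.26, adjusted p 0.00512) and was not called in HrasG12V shScram (0.34) or HrasG12V shEif2b5 (−0.05), and its WT shScram call was lost without footprint library 2 (0.0577).

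**Figure D5:**
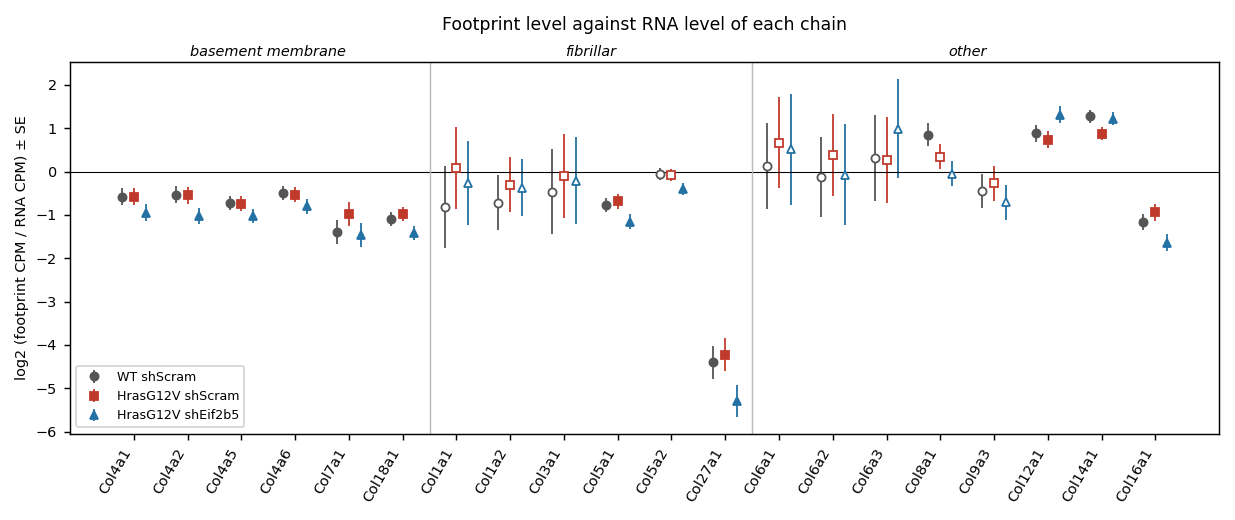
Log2 ratio of footprint CPM to RNA CPM ± SE for each chain in the 3 conditions, from a model over 18 libraries; filled points passed an edgeR adjusted p of 0.05. Col27a1 lies near −4 to −5, the 6 basement membrane chains lie under 0 in every condition, and Col12a1 and Col14a1 lie above 0.

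Col5a1 (−0.77, −0.69 and −1.16) and Col16a1 (−1.16, −0.94 and −1.64) were lower in footprints in all 3 conditions, and Col5a2 in HrasG12V shEif2b5 alone (−0.40 ± 0.14, adjusted p 0.0151, and 0.0738 without footprint library 3). Col1a1 (−0.82 ± 0.94 in WT shScram), Col1a2, Col3a1 and Col6a1 to Col6a3 were called in no condition in this fit, which does not pair libraries by number and in which their errors were wide. Over the 20 chains with at least 10 CPM the ratio ran against coding GC content with a Spearman rho of −0.71, −0.56 and −0.65 in the 3 conditions, and against the share of glycine codons with −0.27, −0.35 and −0.34. These are descriptions over chains that share their libraries, and a fit of this ratio with offsets for base composition was not made. The part of base composition in the ratio was not tested.

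Other genes of the collagen pathway were read from lists. Each list count below stands beside the share of all genes called in the same comparison. In the order of the comparisons these shares were 7.7%, 13% and 0.324% in RNA and 1.7%, 0% and 0.97% in footprints. Of the genes that fold and modify collagen in the endoplasmic reticulum, 19 of 25 listed were in the table, and none of 15 tested in RNA or 17 tested in footprints passed in any comparison. Footprints of P4hb, a subunit of prolyl hydroxylase, stood at 976 ± 129 CPM in WT shScram, 1299 ± 69.3 CPM in HrasG12V shScram and 1310 ± 28.7 CPM in HrasG12V shEif2b5 (SD, n = 3; edgeR adjusted p 0.0971 and 0.0964 against WT shScram). None of 4 tested collagenases and their inhibitors passed in either kind in any of the comparisons of conditions.

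Of 9 tested secretion genes, Creb3l1, a transcription factor of collagen secretion, was lower in RNA of HrasG12V shScram than of WT shScram (18.8 ± 1.73 against 36.5 ± 11.2 CPM, log2 fold change −0.95, adjusted p 0.0217). It lost the call without HrasG12V shScram libraries 1 and 3 together, without either of them (0.0668 and 0.0798) or without WT shScram library 1 (0.0653) or 2 (0.12). Sec13, a coat protein of transport vesicles, was lower in HrasG12V shEif2b5 RNA than in HrasG12V shScram (42.7 ± 11 against 68 ± 11.7 CPM, log2 fold change −0.67, adjusted p 0.0366). Sec13 lost the call without HrasG12V shScram libraries 1 and 3 together. It also lost the call without shEif2b5 library 2 (0.135) or 3 (0.157) or HrasG12V shScram library 1 (0.0674) or 3 (0.152). Of 6 tested processing and crosslinking genes, Adamts14, a procollagen peptidase, fell in RNA in the first comparison (29.7 ± 8.15 against 62.1 ± 3.2 CPM, log2 fold change −1.10, adjusted p 0.00498). Its call was lost without HrasG12V shScram libraries 1 and 3 together, at −0.81. Neither list held a footprint call.

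Of 5 tested collagen receptors, Itga2, the alpha chain of a collagen-binding integrin, rose in RNA of HrasG12V shScram against WT shScram (32.9 ± 8.52 against 19.4 ± 4.17 CPM; 0.75, adjusted p 0.0456) and fell in HrasG12V shEif2b5 against HrasG12V shScram (20.2 ± 2.27 CPM; −0.71, adjusted p 0.0456). The comparisons share the HrasG12V shScram libraries, and both calls were lost without libraries 1 and 3. Without library 3 alone the adjusted p was 0.227 and 0.23. The other RNA libraries whose removal ended a call were HrasG12V shScram library 1 (0.0781 and 0.0751), WT shScram libraries 1 (0.14) and 2 (0.175), and shEif2b5 libraries 1 (0.118), 2 (0.0773) and 3 (0.172).

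Of 20 other parts of the basement membrane, 19 were tested in RNA, and 2 passed in the first comparison (list median −0.1), 1 in the second (median 0.14) and 1 for HrasG12V shEif2b5 against WT shScram (median −0.01), beside the 7.7%, 13% and 0.324% of all genes called there. In footprints 20 were tested, and 1, 0 and 1 passed in that order, beside 1.7%, 0% and 0.97% of all genes called there. Lama1, a laminin chain, was higher in RNA of HrasG12V shEif2b5 than of WT shScram (23 ± 0.616 against 8.13 ± 2.16 CPM; 1.45, adjusted p 0.0195) and of HrasG12V shScram than of WT shScram (16.6 ± 4.72 CPM; 0.99, adjusted p 0.0312). Npnt, an integrin ligand, was higher in HrasG12V shScram than in WT shScram in RNA (0.53, adjusted p 0.0326) and in footprints (176 ± 5.49 against 115 ± 25.2 CPM; 0.61, adjusted p 0.0303). Agrn, a proteoglycan, was higher in HrasG12V shEif2b5 RNA than in HrasG12V shScram (1250 ± 145 against 890 ± 86.1 CPM; 0.49, adjusted p 0.0422, and 0.812 with the offsets, at 0.07). Lamb1, another laminin chain, was higher in HrasG12V shEif2b5 footprints than in WT shScram (365 ± 10.3 against 261 ± 12 CPM; 0.48, adjusted p 0.0421, and 0.063 with the offsets). Without HrasG12V shScram RNA libraries 1 and 3, which leaves library 2 alone in that group, the RNA calls of Lama1 (0.82) and Npnt (0.39) in HrasG12V shScram against WT shScram and of Agrn (0.53) were lost. That of Lama1 in HrasG12V shEif2b5 against WT shScram was kept (1.45, adjusted p 0.00178). Each of these calls was lost in at least 1 fit without a single library, where the highest adjusted p was 0.132 and 0.164 for Lama1, 0.131 and 0.155 for Npnt, 0.143 for Agrn and 0.163 for Lamb1. The highest came without WT shScram RNA library 2 and HrasG12V shScram RNA library 3 for Lama1, without HrasG12V shScram RNA library 3 and footprint library 1 for Npnt, without HrasG12V shScram RNA library 1 for Agrn and without HrasG12V shEif2b5 footprint library 3 for Lamb1. No list held a call in translation efficiency.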

How the data were processed

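Ribosome footprints and RNA were measured in 18 libraries, 3 per condition and kind. The authors deposited raw read counts per gene over coding sequence, and Bowtie, TopHat2, HTSeq and mm10 are named in the submitters' processing notes; versions and the strand setting are not given in the sources used here. All 20655 genes were the input of every fit. In the main fits 11096 genes in RNA, 11448 in footprints and 10793 in both kinds passed the filter and were tested. edgeR 4.0.16 in R 4.3.3 was run with filterByExpr (minimum count 10, minimum total 15), TMM scaling within each kind, the quasi-likelihood test over the 3 conditions of a kind and Benjamini-Hochberg adjustment over all genes tested, at 0.05. Translation efficiency was the interaction of kind and condition over 18 libraries, and the ratio of footprints to RNA came from the same model. CPM on TMM-scaled library sizes are given as mean ± SD over 3 libraries or per library, and per kilobase of coding sequence for levels compared between genes. The tests were checked on simulated counts.

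Alternatives were DESeq2 1.42.0 (size factors and the Wald test), no filter, a replicate block, offsets for coding GC content and length (mgcv 1.9.3), fits of 2 conditions alone, and fits without each library and without HrasG12V shScram RNA libraries 1 and 3. An adjusted p in the text is edgeR's unless DESeq2 is named. Named were all chains called in a comparison or with a mean of at least 10 CPM in a group, and from each pathway list up to 4 called genes, or up to 2 without a call. The members and lists were chosen with earlier results of these data known. GENCODE M21 (mm10) gave coordinates and coding sequences, matched by symbol for 19889 genes and by synonym for 613, with 153 unmatched. The biological coefficient of variation was 0.162 in RNA, 0.14 in footprints and 0.149 over both. No library pair within a group was as close as sampling noise (chi-square per degree of freedom 3.52 to 22.4). The labels do not say whether replicates came from separate embryos, so p-values measure the spread between these libraries, which may be technical. Protein sequences were not used here. Tables and figures were made with Python 3.11.15, pandas 2.3.3, scipy 1.17.1 and matplotlib 3.10.9.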

Additional observations from a re-analysis of the deposited data

How the results depend on the processing

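No chain that was called changed sign under any alternative run, and no chain was called with the other sign. Of the 20 chains with at least 10 CPM, 11, 9 and 4 changed sign in at least 1 alternative in RNA (in the order of the comparisons), 11, 12 and 5 in footprints, 18, 11 and 9 in translation efficiency and 7, 8 and 5 in the ratio of footprints to RNA. In RNA of HrasG12V shScram against WT shScram, Col5a1, Col18a1 and Col27a1 stood at 0.17, 0.21 and 0.33 with the offsets, and Col7a1 at 0.18 without HrasG12V shScram libraries 1 and 3. The number of chains called between HrasG12V shScram and WT shScram in RNA (2) was 4 with no filter, 1 in the fit of 2 conditions and 1 to 10 with single libraries left out. For HrasG12V shEif2b5 against HrasG12V shScram in RNA (6) it was 0 with GC and length offsets, 1 in the fit of 2 conditions and 0 to 11 with single libraries left out. For HrasG12V shEif2b5 against WT shScram in RNA (0) it was 1 without HrasG12V shScram RNA libraries 1 and 3 and 1 in the fit of 2 conditions, Col27a1 in each. In footprints the first comparison (2) gave 4 by the DESeq2 Wald test and 0 to 4 with single libraries left out. HrasG12V shEif2b5 against WT shScram (1) gave 2 with no filter, 2 by the DESeq2 Wald test, 3 with the offsets and 0 to 3 with single libraries left out. Translation efficiency for HrasG12V shEif2b5 against HrasG12V shScram (0) gave 0 to 4. Calls over all genes were not set beside the chain counts of the fits with single libraries left out. Apart from leaving libraries out, the cause of these shifts was not tested.

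Over all genes, RNA calls for HrasG12V shScram against WT shScram (854) fell to 411 with offsets and 389 with 2 conditions. For HrasG12V shEif2b5 against HrasG12V shScram (1444) they were 611 and 876. For HrasG12V shEif2b5 against WT shScram (36) they were 63 by the DESeq2 Wald test, 72 with no filter, 123 with 2 conditions and 124 without HrasG12V shScram RNA libraries 1 and 3. Counts without those libraries are not given for comparisons with HrasG12V shScram, which then has 1 RNA library. With offsets the split in the second comparison was 273 higher and 338 lower, against 580 and 864, and in the first 284 and 127, against 516 and 338. Footprint calls for HrasG12V shEif2b5 against WT shScram (111) were 229 by the Wald test, 216 with no filter and 44 with 2 conditions. Translation efficiency calls for the first comparison (126) were 263 by the Wald test and 43 with 2 conditions, and for the second (228) 441 by the Wald test and 125 with offsets.

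The labels do not say that a replicate number pairs libraries. Same-numbered footprint and RNA libraries of a condition had deviations correlated at 0.106, 0.352 and 0.247 in WT shScram, 0.206, −0.0199 and 0.142 in HrasG12V shScram, and 0.159, −0.00874 and 0.0956 in HrasG12V shEif2b5 over 7189 genes, so pairing was not shown for every pair and is a hint from the data only. Same-numbered libraries of different conditions correlated at −0.442 to 0.44. With footprint and RNA libraries paired by a replicate block, the ratio of footprints to RNA was called for 15, 13 and 15 chains in place of 12, 11 and 12, and errors of the type I, III and VI chains were smaller. Of all genes 69.4%, 65.5% and 70.2% were called without the pairing, and the shares with it are not given here. Col1a1 was then called in WT shScram (−0.52 ± 0.19, adjusted p 0.0196), Col1a2 in WT shScram (−0.57, 0.00373) and HrasG12V shEif2b5 (−0.41, 0.0357), Col6a2 in HrasG12V shScram (0.44, 0.0395) and Col6a3 in HrasG12V shEif2b5 (0.78, 0.00314), and Col3a1 and Col6a1 in no condition. The same pairing gave 1 chain in translation efficiency of HrasG12V shEif2b5 against HrasG12V shScram (Col26a1, −3.28, adjusted p 0.0424). In fits of RNA or footprints alone the block instead joined same-numbered libraries of different conditions. With that block the chain count was 4 for RNA of HrasG12V shEif2b5 against HrasG12V shScram. With that block and the offsets the chain counts were 0 for the same RNA comparison, 1 for RNA of HrasG12V shEif2b5 against WT shScram (Col27a1) and 2 for its footprints. Over all genes the block gave 184 footprint calls for HrasG12V shEif2b5 against WT shScram, and block with offsets 215, and 363, 555 and 57 RNA calls in the 3 comparisons.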
